A study of Mus musculus with 4 samples.

Results

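In mouse oocytes, 10 genes of lipid droplet storage and breakdown were examined, of 55335 genes in the deposited tables. They were taken by symbol. *Pnpla3* was put on the list because its counts differed widely between mutant and control oocytes, and *Gm49513* because it overlaps *Pnpla3*, so the values of these genes are given as a description without a test. The other 8 (*Pnpla2*, *Plin2*, *Plin3*, *Dgat1*, *Dgat2*, *Lipe*, *Abhd5* and *Mgll*) were chosen by role. The series held 2 libraries labelled mutant and 2 labelled control, all of oocytes of the C57BL/6 strain whose descriptions carry the prefix MII, prepared with Smart-Seq2, a protocol for whole cDNA from a few cells. The mice were made with a point change at the alternative splice site of exon 3 of *Ezh2*, the catalytic subunit gene of Polycomb repressive complex 2. Counts per gene do not show which form of exon 3 was made. The labels do not say whether the mutant oocytes kept the long or the short form, how many oocytes went into a library, or whether the libraries came from separate animals. The p-values therefore measure only the spread between these samples.

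Lipid droplets are stores of triacylglycerol and sterol esters inside a phospholipid monolayer, and perilipins coat their surface. The acyltransferases DGAT1 and DGAT2 add the last fatty acid to triacylglycerol. Breakdown runs from the lipase PNPLA2, with its activator ABHD5, through the hormone-sensitive lipase encoded by *Lipe* to the monoacylglycerol lipase encoded by *Mgll*. Mouse oocytes hold lipid droplets as an energy store. PNPLA3 is a relative of PNPLA2 that sits on droplets and is best known from liver, where the human gene is linked to fatty liver disease.

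The libraries held 26575938 and 26587327 counts in the mutants and 26617816 and 25090032 counts in the controls. Markers of oocytes were present in every library, with 15 of 16 listed genes read in each, led by *Btg4* and *H1foo*. Cumulus and granulosa markers summed to 511 and 48.3 CPM (counts scaled to library size) in mutants 1 and 2 and to 77.2 and 57.2 CPM in controls 1 and 2, and 21, 14, 15 and 11 of 22 genes had a count in that order. *Gja1*, with the most counts among them over all libraries, had 2796 and 212 counts in the mutants and 271 and 0 counts in the controls. *Cyp19a1*, next in counts, went the other way, with 461 and 627 counts in the mutants and 850 and 1070 counts in the controls. Mutant 1 thus stood apart for the sum of these markers and for *Gja1*, while *Cyp19a1* was lowest there. Of 22 leukocyte markers, 11 and 20 had a count in the mutants, and 8 and 7 in the controls, and they summed to 160 and 355 CPM in mutants and 258 and 211 CPM in controls. *Ms4a1*, with the most counts among them, made up much of these sums, at 137 and 158 CPM in mutants and 247 and 197 CPM in controls. *Coro1a* had 0 and 1713 counts in the mutants and 0 in both controls. *Ptprc*, next in counts, had 3 and 1150 counts in the mutants and 0 in both controls. Mutant 2 thus stood apart for *Coro1a* and *Ptprc*, but not for *Ms4a1*. Adipose tissue and liver are the usual sites of *Pnpla3*. Markers of their cells summed to 30.7 and 15.6 CPM in mutants and to 14.01 and 14.7 CPM in controls. Of 15 genes, 6 and 4 were read in mutants and 5 and 3 in controls. Most of each sum was *Adipor2*, with 25.4 and 14.97 CPM in mutants and 13.4 and 13.3 CPM in controls. *Apoa1*, next in counts, had 115 and 0 counts in mutants and 3 and 0 counts in controls. *Lep*, *Retn*, *Cfd*, *Alb*, *Serpina1a*, *Fgb* and *Cyp2e1* were at 0 in every library. The part of these cells in the values below was not tested, and in bulk RNA fewer cells of a type and less RNA per cell cannot be told apart.

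*Pnpla3* lies on the forward strand of chromosome 15 (84167837 to 84187236, mm10). Its coding transcript has 8 exons and 1313 bases. *Gm49513*, a noncoding gene annotated as a processed transcript, runs on the same strand (84181914 to 84195881) and has 3 exons in 303 bases. Its middle exon is the first 105 bases of the last exon of that transcript, and all 105 of them are coding in *Pnpla3*. Its last exon begins with the 111 bases of exon 2 of *Samm50*, which encodes a subunit of the mitochondrial outer membrane sorting machinery. The outer exons of *Gm49513* are printed because they show what it holds apart from its overlap with *Pnpla3*. They are shown 5′ to 3′ from the GENCODE M21 transcript, with capitals for bases that are also in an exon of *Samm50*.
Gm49513 exon 1 (chr15:84181914-84181973): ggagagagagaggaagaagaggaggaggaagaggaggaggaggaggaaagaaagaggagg
Gm49513 exon 3 (chr15:84195744-84195881): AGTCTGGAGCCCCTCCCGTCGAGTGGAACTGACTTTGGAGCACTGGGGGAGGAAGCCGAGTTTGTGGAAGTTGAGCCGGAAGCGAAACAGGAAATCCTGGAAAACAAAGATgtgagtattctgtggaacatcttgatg

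Exon 1 is made of A and G alone over its 60 bases. The stretch shared by *Pnpla3* and *Gm49513* is 6.78% of the exonic bases of *Pnpla3* and 34.7% of those of *Gm49513*. *Pnpla3* and *Samm50* share no exonic base.

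**Figure D1:**
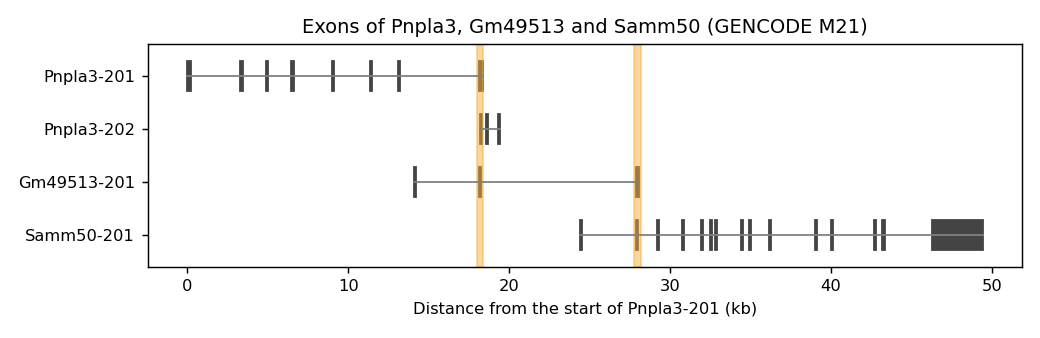
Exons (dark boxes) of *Pnpla3*, *Gm49513* and *Samm50* by distance in kb from the start of *Pnpla3*, one row per transcript (the longest of *Samm50*), with the shortest exons widened to be visible. The shaded bands mark the 105 bases that *Gm49513* shares with *Pnpla3* and the 111 bases that it shares with *Samm50*.

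*Pnpla3* had 1759 and 1944 counts in the mutant libraries, against 16 and 25 counts in the control libraries, in the deposited count matrix. Scaled to library size this was 67.7 ± 7.47 CPM in mutants and 0.818 ± 0.246 CPM in controls (SD, n = 2 each). Both mutant libraries were far above both controls and close to each other. The fitted log2 fold change was 6.36 (SE 0.295), and this is the value for which the gene was chosen. *Gm49513* had nearly the same counts, 1600 and 1785 in mutants and 12 and 15 in controls. Its fitted log2 fold change was 6.83 (SE 0.274).

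The second set of deposited values, the RSEM expected counts per gene, gave *Pnpla3* far fewer reads. RSEM divides reads among annotated transcripts. *Pnpla3* had 224 and 200 expected counts in mutants and 0 and 1 in controls, and *Gm49513* was listed at 0 in all 4 libraries. The groups were again apart, at 424 expected counts over both mutants against 1 over both controls. The ratio was 387 on scaled libraries, and it rests on that 1 control count, so its size is uncertain. The RSEM mean length of *Pnpla3* was 1313 bases in both mutants, which is the length of the coding transcript, so RSEM placed these reads there. *Pnpla3* stood at 13.2 and 12.3 TPM (transcript abundance, a level per length) in mutants and at 0 and 0.06 TPM in controls.

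RSEM and the matrix thus gave the same direction and a different amount. Over both genes the matrix held 3359 and 3729 counts in the mutants, of which the RSEM values covered 6.67% and 5.36%. For comparison, the ratio of RSEM to matrix counts in the mutants had a median of 0.927 over 8422 genes with at least 100 counts in both, and it was 0.115 for *Pnpla3*. A ratio that low or lower was found for 6.14% of these genes. Among the genes chosen by role with that many counts in both mutants, the ratio lay between 0.736 for *Dgat2* and 1.34 for *Abhd5*.

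How the matrix treated reads that fit more than 1 gene is not stated. In 47 pairs of genes in which at least 95% of the exonic bases of one lay within the other (outer gene with at least 2000 counts in total, inner gene with at least 10% of that), the matrix counts of both summed to a median of 1.06 times their RSEM counts, while the outer gene alone came to 0.825 times. The library totals of the matrix were 1.06 to 1.08 times those of RSEM. At the median of these pairs the sum over both genes was thus no further above RSEM than whole libraries were. The pairs were kept by the matrix count of the inner gene. Pairs whose shared reads were dropped or left with the outer gene could therefore be missing. For this reason the median cannot show how the matrix treated shared reads. *Pnpla3* and *Gm49513* share only 6.78% and 34.7% of their exonic bases and are not such a pair, so this median need not hold for them. The matrix count of *Pnpla3* exceeded that of *Gm49513* by 159 in each mutant and by 4 and 10 in the controls, which is 5.65 and 5.97 CPM in mutants and 0.161 and 0.397 CPM in controls. How many counts of either gene lay in the shared 105 bases could not be computed, since no file held values per exon.

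**Figure D2:**
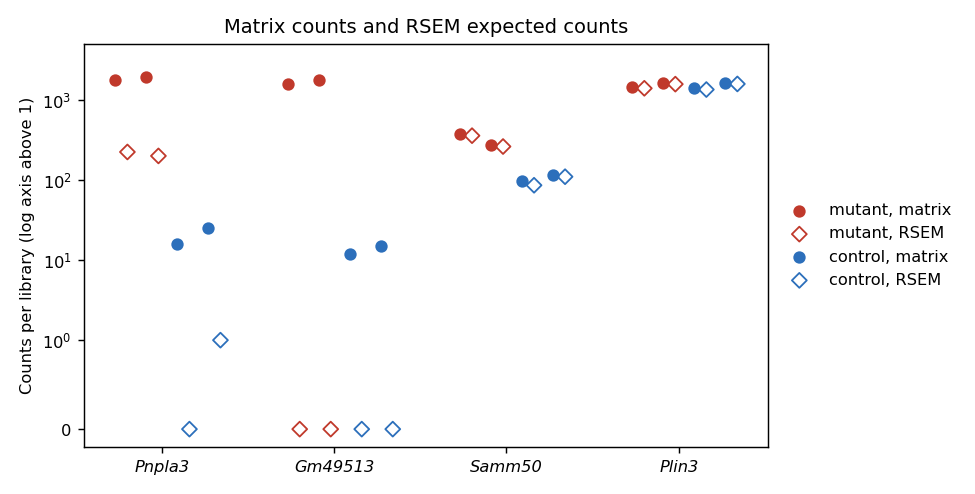
Counts per library on a log axis (linear below 1) for *Pnpla3*, *Gm49513*, *Samm50* and *Plin3*, with filled circles for the matrix, open diamonds for RSEM, red for mutants and blue for controls. *Pnpla3* had 1759 and 1944 matrix counts but 224 and 200 RSEM counts in mutants, *Gm49513* was at 0 in RSEM, and the values of *Samm50* and *Plin3* nearly coincided.

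The neighbours of *Pnpla3* were read for differences beyond the locus. Within 500000 bases lay 19 other annotated genes, of which 5 had no count in any library and 7 had enough counts to test. Of these 7, 0 passed the test in either direction (an adjusted p under 0.05 by edgeR's quasi-likelihood test over 15493 genes), where 3.75% of all tested genes passed, 1.77% as higher in mutants and 1.98% as lower. *Samm50*, whose start lies 5005 bases past the end of *Pnpla3*, came nearest. It had 375 and 277 counts in mutants and 98 and 117 counts in controls, and both mutants were above both controls. Its log2 fold change was 1.46 (SE 0.318, edgeR adjusted p = 0.0606), which did not pass here but passed in 6 of 11 other settings (adjusted p from 0.00226 to 0.354). RSEM gave *Samm50* 358 and 262 expected counts in mutants and 86 and 110 in controls. *Pnpla5*, a close relative of *Pnpla3* upstream on the opposite strand, had 9 and 11 counts in mutants and 2 and 2 counts in controls and was too low to test. *Parvg*, a parvin gene known from blood cells, had 0 and 388 counts in mutants and 0 and 1 in controls, so its counts lay in the library with *Coro1a*. The other tested neighbours (*Mpped1*, *Efcab6*, *Sult4a1*, *Shisal1*, *Rtl6* and *Prr5*) had log2 fold changes between -0.63 and 0.25. With 3.75% of all tested genes passing, 0 calls among 7 genes cannot show whether the difference reached beyond the locus.

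**Figure D3:**
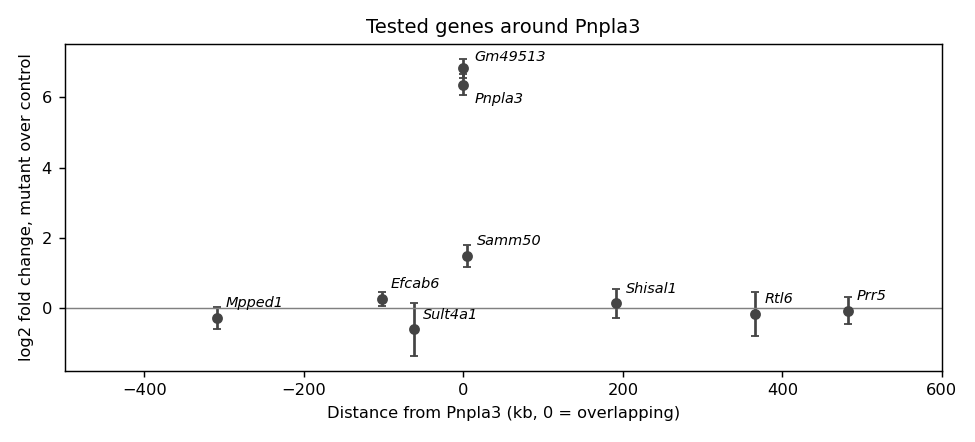
The log2 fold change of mutants over controls (points, bars ± SE) for the tested genes within 500000 bases of *Pnpla3*, by distance in kb. *Pnpla3* and *Gm49513* stood at 6.36 and 6.83, *Samm50* at 1.46, and the others between -0.63 and 0.25.

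By distance in log2 CPM over the 4 libraries, the tested genes most like *Pnpla3* were *Btla* (distance 0.303), *Gm10184* (0.736) and *Gm49513* (0.785). *Btla*, an inhibitory immune receptor gene on another chromosome, had 60.7 and 59.8 CPM in mutants and 0.604 and 0.992 CPM in controls. *Gm10184*, which GENCODE annotates as a protein-coding retrogene and RefSeq as a pseudogene, had 44.6 and 62.8 CPM in mutants and 0.765 and 1.39 CPM in controls. Over 4 libraries the likeness amounts to a shared high and a shared low group.

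Among the 8 genes chosen by role, 7 had enough counts to test and 0 passed (edgeR quasi-likelihood test over all genes, background 1.77% higher and 1.98% lower). At an unadjusted p under 0.05 the count was 1, and DESeq2 called 1, *Plin2* in both cases. Their median log2 fold change was 0.38, against 0.05 over all tested genes. In the matrix counts, both mutants lay above both controls for 3 of the 7 (*Plin2*, *Dgat1* and *Dgat2*). The same held for 28.8% of all tested genes. With the RSEM counts *Dgat1* overlapped between the groups. Both mutants lay below both controls for 0 of the 7, where this held for 25.7% of all tested genes. On simulated counts of this design with 50 genes changed at each size, the test recovered 6% of 2-fold and 50% of 4-fold changes. The simulation gave every gene the same biological coefficient of variation, 0.35. Its shares therefore need not hold for a gene with a smaller or larger spread.

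**Figure D4:**
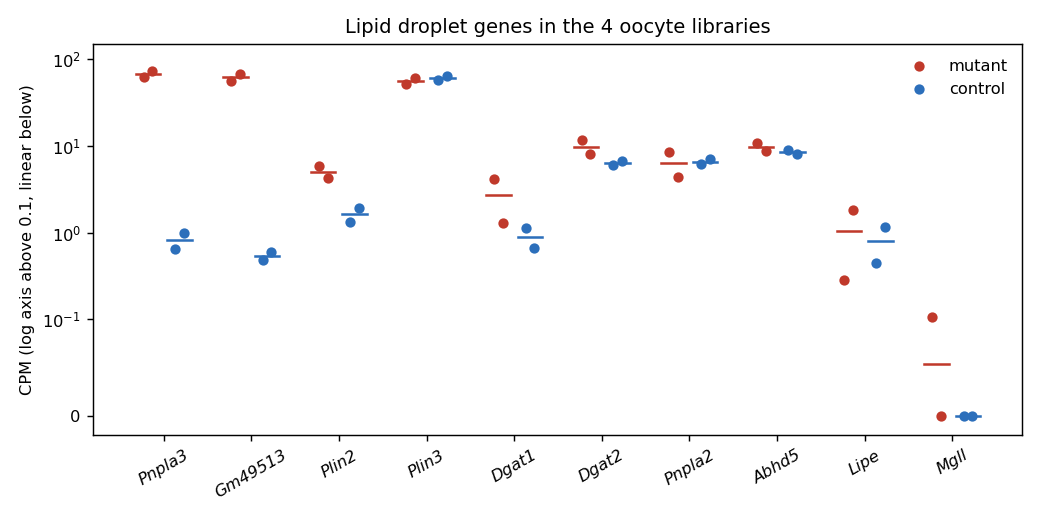
CPM (log axis above 0.1, linear below) of the 10 genes in 2 mutant libraries (red) and 2 control libraries (blue), with points for libraries and lines for group means. *Pnpla3* and *Gm49513* were near 1 CPM or below in controls and above 50 CPM in mutants, while *Plin3*, *Abhd5* and *Pnpla2* overlapped between the groups.

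The coat genes differed in pattern. *Plin2*, the perilipin found on droplets of most tissues, had 165 and 113 counts in mutants and 33 and 49 counts in controls. Both mutants were above both controls, at 5.05 ± 1.14 CPM in mutants and 1.64 ± 0.435 CPM in controls (SD, n = 2 each). Its log2 fold change was 1.62 (SE 0.448) and did not pass with edgeR (adjusted p = 0.0928), but it passed with DESeq2 (adjusted p = 0.0368). Over all 11 alternatives that tested it the adjusted p ran from 0.0368 to 0.431. *Plin2* was higher in mutant 1, the library with the highest sum of cumulus markers. Its log2 fold change was 1.36 without mutant 1 and 1.83 without mutant 2. In RSEM it had 163 and 106 expected counts in mutants and 30 and 47 in controls. The RSEM mean length was 972 and 873 bases in mutants and 1015 and 751 bases in controls, below the 1888 bases of its longest annotated transcript in all 4 libraries.

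*Plin3*, a perilipin that moves between cytosol and droplets, was above *Plin2* in TPM in every library and close to equal between the groups. It had 1467 and 1634 counts in mutants and 1414 and 1633 counts in controls, and the groups overlapped. Its log2 fold change was -0.10 (SE 0.174, edgeR adjusted p = 0.782). RSEM placed it on its 3645-base transcript in every library.

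Of the enzymes of the last step of triacylglycerol synthesis, *Dgat1* had 117 and 34 counts in mutants and 28 and 17 counts in controls. Mutant 1 stood alone, while mutant 2 was close to control 1. The log2 fold change was 1.59 (SE 0.714, edgeR adjusted p = 0.246), and without mutant 1 it was 0.48. RSEM gave *Dgat1* 107 and 17 expected counts in mutants and 27 and 15 in controls, where the groups overlapped. The sum of cumulus markers was highest in mutant 1, and their part in the value was not tested. *Dgat2* had 328 and 214 counts in mutants and 149 and 169 counts in controls, with both mutants above both controls. Its log2 fold change was 0.63 (SE 0.328, edgeR adjusted p = 0.306) from the matrix and 0.36 (adjusted p = 0.611) with the RSEM counts, which were 235 and 164 in mutants and 137 and 147 in controls. Over all alternatives the adjusted p of *Dgat2* ran from 0.185 to 0.731.

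The lipolytic genes overlapped between the groups. *Pnpla2*, which encodes the main triacylglycerol lipase, had 237 and 117 counts in mutants and 154 and 177 counts in controls, so the mutants lay on either side of the controls. Its log2 fold change was -0.05 (SE 0.407, edgeR adjusted p = 0.963). *Abhd5*, which encodes the activator of that lipase, had 301 and 230 counts in mutants and 224 and 206 counts in controls. Its log2 fold change was 0.17 (SE 0.29, edgeR adjusted p = 0.782). *Abhd5* shares 950 exonic bases with the antisense gene *A730085K08Rik*, which had 132 and 65 matrix counts in mutants and 80 and 61 in controls but 0 in RSEM. RSEM gave *Abhd5* itself 421 and 290 expected counts in mutants and 295 and 260 in controls, more than the matrix in every library.

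*Lipe*, the gene of hormone-sensitive lipase, was low and followed neither label. It had 8 and 48 counts in mutants and 11 and 29 counts in controls, with the second library of each group higher than the first. The log2 fold change was 0.38 (SE 0.982, edgeR adjusted p = 0.861), and its sign changed with the library left out. *Lipe* shares 918 exonic bases with the antisense gene *4732471J01Rik*, so its low counts are uncertain. *Mgll*, the gene of the last lipase in the chain, had 3 and 0 counts in mutants and 0 in both controls. A count of 0 allows up to 3 counts, which is 0.107 to 0.121 CPM per library, and covers counting error only. The 3 reads were placed by RSEM on a transcript of 460 bases with no coding sequence.

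Set in order by TPM, the mutant oocytes had *Plin3* (26.7 TPM on average), *Abhd5* (15.6), *Plin2* (13.1), *Pnpla3* (12.7), *Dgat2* (6.11), *Pnpla2* (4.93), *Dgat1* (2.68) and *Lipe* (0.635). In control oocytes the order by TPM was *Plin3* (25.2 TPM on average), *Abhd5* (14.04), *Pnpla2* (5.57), *Plin2* (4.32), *Dgat2* (4.16), *Dgat1* (0.970), *Lipe* (0.540) and *Pnpla3* (0.0300). In mutants the single libraries of *Abhd5*, *Plin2* and *Pnpla3* overlapped, and those of *Pnpla2* overlapped with *Dgat2* and with *Dgat1*, while *Dgat2* was above *Dgat1* in both. In controls *Plin2* overlapped with *Pnpla2* and with *Dgat2*, *Pnpla2* was above *Dgat2* in both, and *Dgat1* and *Lipe* overlapped. *Mgll* stood at 1.20 and 0 TPM in mutants, overlapping with *Lipe*, and at 0 in both controls. The place of *Pnpla3* in the mutant order rests on the RSEM values, which are far below its matrix counts: from the matrix it had 67.7 CPM in mutants, against 56.7 CPM for *Plin3* and 5.05 CPM for *Plin2*, values that are not per length. *Gm49513* is not placed, because RSEM listed it at 0 while the matrix did not.

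The RSEM tables also gave the mean transcript length of each gene, weighted by the estimated abundance of its transcripts. *Pnpla2* had a mean length of 2385 and 2410 bases in mutants and 1929 and 1957 bases in controls. *Abhd5* had 1664 and 1687 bases in mutants and 1394 and 1483 bases in controls. Both genes were thus longer in both mutants, by 23.4% and 16.5% of the control mean. Of 5 genes on the list with several transcripts and at least 20 expected counts in every library these were 2, and *Plin2*, *Plin3* and *Dgat2* overlapped. The groups were apart for 36.2% of 8667 such genes, with 9.18% of the 8667 longer in mutants by at least 10% and 4.86% shorter by as much. *Pnpla2* has coding transcripts of 1799, 1957, 2048 and 2625 bases and *Abhd5* has coding transcripts of 1386, 2576 and 3157 bases, among others. Which of them differed could not be read from the mean, and no test was run.

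Genes of the wider droplet pathway were read from 9 lists by role, 161 genes apart from those above, of which 109 had enough counts to test. In all 3 rose and 6 fell (edgeR quasi-likelihood test over all genes), which is 2.75% and 5.50% of the tested genes, against 1.77% and 1.98% of all genes. The median log2 fold change of the 109 was 0.14, with 65 positive and 44 negative. The number of calls on the lists moved when a library was left out, as did the number over all genes. Over the other settings *Soat1* passed in 10 of 12, *Gpat3* and *Acsl5* in 9 of 11, *Acsl3*, *Npc1* and *Fabp5* in 8 of 12, and *Elovl5* in 7 of 12.

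Coat and lipase regulator genes numbered 25 measured and 16 tested, of which 0 rose and 2 fell. *Hsd17b13*, which encodes a droplet enzyme known from liver, had 513 and 631 counts in mutants and 1527 and 1779 counts in controls. It fell to 20.96 ± 3.88 CPM in mutants, against 66.0 ± 6.44 CPM in controls (SD, n = 2 each; log2 fold change -1.66, SE 0.207, edgeR adjusted p = 0.0152), and it passed in 10 of 12 other settings. *Lpcat2*, a lysophospholipid acyltransferase gene, had 2725 and 2565 counts in mutants and 4137 and 3868 counts in controls (log2 fold change -0.73, SE 0.14, edgeR adjusted p = 0.0466), and it passed in 5 of 12 other settings. *Vps13a*, a lipid transfer protein gene with the highest mean CPM of the list over all 4 libraries, had 460 ± 67.8 CPM in mutants and 433 ± 25.7 CPM in controls. From this list, *Plin4*, *Plin5*, *Cidea*, *Cideb* and *Cidec* had 0 matrix counts in all 4 libraries, and *Plin1* had 2 counts in control 2 alone.

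Of the genes of droplet formation at the endoplasmic reticulum, 13 were tested, 0 rose and 1 fell. *Acsl3*, an acyl-CoA synthetase gene whose product sits on nascent droplets, had 4025 and 5128 counts in mutants and 8815 and 7632 counts in controls (log2 fold change -0.97, SE 0.191, edgeR adjusted p = 0.0486). *Lpin2*, a phosphatidate phosphatase gene with the highest mean CPM among them, had 628 ± 30.03 CPM in mutants and 533 ± 44.5 CPM in controls and did not pass.

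In glycerolipid synthesis, 14 genes were tested, 2 rose and 0 fell. *Gpat3*, a glycerol-3-phosphate acyltransferase gene of the first step, had 384 and 340 counts in mutants and 15 and 22 counts in controls. It rose to 13.2 ± 0.611 CPM in mutants, against 0.739 ± 0.19 CPM in controls (SD, n = 2 each; log2 fold change 4.15, SE 0.386, edgeR adjusted p = 0.00522), and RSEM gave 379.5 and 328.04 expected counts in mutants and 13 and 17 in controls. *Acsl5*, another acyl-CoA synthetase gene, had 67 and 119 counts in mutants and 4 and 4 counts in controls (log2 fold change 4.38, SE 0.66, edgeR adjusted p = 0.0264). RSEM gave *Acsl5* 66 and 134 expected counts in mutants and 0 and 2 in controls, with a log2 fold change of 6.38 (SE 1.08, edgeR adjusted p = 0.029). *Gk*, the glycerol kinase gene with the highest mean CPM of the list, had 191 ± 27.7 CPM in mutants and 192 ± 20.3 CPM in controls.

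For sterol esters, 5 genes were tested, 1 rose and 1 fell. *Soat1*, which encodes the enzyme that esterifies cholesterol, had 3780 and 2938 counts in mutants and 1377 and 1524 counts in controls (log2 fold change 1.08, SE 0.165, edgeR adjusted p = 0.0274). *Npc1*, a lysosomal cholesterol transporter gene, had 1471 and 1634 counts in mutants and 2543 and 2577 counts in controls (log2 fold change -0.85, SE 0.157, edgeR adjusted p = 0.0429). *Npc2*, its partner, had the highest mean CPM of the list over all 4 libraries but not within either group, with 106 ± 34.2 CPM in mutants and 76.0 ± 10.1 CPM in controls.

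In fatty acid synthesis, 16 genes were tested and 1 fell, the elongase gene *Elovl5*, with 3663 and 3863 counts in mutants and 8273 and 5821 counts in controls (log2 fold change -1.04, SE 0.204, edgeR adjusted p = 0.049). *Me1*, which encodes malic enzyme, had the highest mean CPM, at 1187.5 ± 115.8 CPM in mutants and 1210.4 ± 8.65 CPM in controls. RSEM gave *Me1* 22848.8 and 24929 expected counts in mutants and 28818.5 and 29636.4 in controls. Its log2 fold change was -0.03 from the matrix and -0.41 with the RSEM counts (edgeR adjusted p = 0.175), and neither passed. The list median was 0.86 in mutant 1 and 0.11 in mutant 2 on the log2 CPM scale against the control mean. It was also higher in mutant 1 for sterol ester formation (1.02 and 0.12) and glycerolipid synthesis (0.52 and 0.06). Of all the lists, only coat and lipase regulators went the other way (-0.014 and 0.12). Over all tested genes the medians were 0.06 and 0.03. Mutant 1 also had the highest sum of cumulus markers, and their part in these medians was not tested. In fatty acid uptake and binding, 12 genes were tested and 1 fell, *Fabp5*, a fatty acid binding protein gene, with 1191 and 950 counts in mutants and 1826 and 1823 counts in controls (log2 fold change -0.90, SE 0.17, edgeR adjusted p = 0.0454). *Acbd3*, with the highest mean CPM there, overlapped between the groups.

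None of the other lists held a call. The 4 tested PNPLA family genes had log2 fold changes between -0.44 and 0.16, and *Pnpla8*, with the highest mean CPM among them, had 117.5 ± 4.28 CPM in mutants and 120.5 ± 4.29 CPM in controls. The 11 other neutral lipid hydrolases had 0 calls, and *Nceh1*, a cholesteryl ester hydrolase gene, had the highest mean CPM over all 4 libraries, with 332 ± 34.9 CPM in mutants and 265 ± 16.3 CPM in controls. *Lpl*, the lipoprotein lipase gene, had 190.1 CPM in mutants and 294 CPM in controls, above *Nceh1* in controls only, and did not pass. Of 18 lipogenic and lipid-sensing regulators 0 passed. *Insig1*, a regulator of sterol synthesis, had the highest mean CPM over all 4 libraries, and *Pparg* the highest in controls. *Pparg*, the nuclear receptor gene of fat cell formation, had 1674 and 2715 counts in mutants and 4291 and 4293 counts in controls (log2 fold change -1.09, SE 0.256, edgeR adjusted p = 0.0688), which passed in 5 of 12 other settings. *Pparg*, *Srebf1* and *Mlxipl* were named after their values were seen, and the products of *Srebf1* and *Mlxipl* are transcription factors known to drive *Pnpla3* in liver. *Srebf1* had 156 and 82 counts in mutants and 55 and 74 counts in controls (log2 fold change 0.74, SE 0.466, edgeR adjusted p = 0.396). *Mlxipl* had 267 and 214 counts in mutants and 305 and 579 counts in controls (log2 fold change -1.01, SE 0.355, edgeR adjusted p = 0.158). Neither of these passed, though *Mlxipl* passed in 1 of 12 other settings, without mutant 1 (adjusted p = 0.0454).

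**Figure D5:**
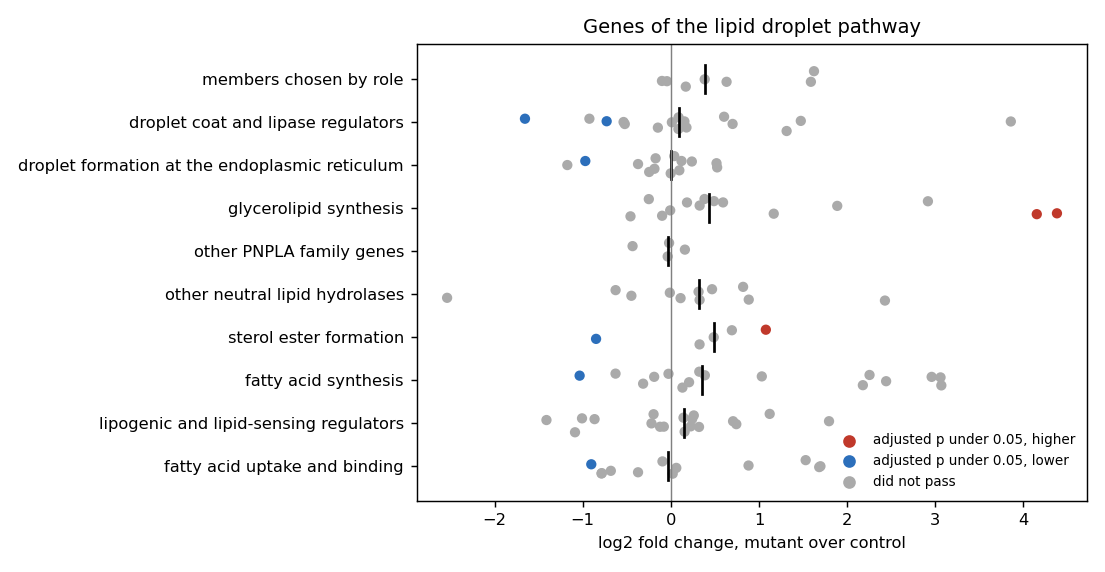
The log2 fold change of mutants over controls for the 7 tested genes chosen by role and for the tested genes of each lipid list (points), with list medians (black bars). Red points passed as higher (3 genes) and blue points as lower (6 genes), and the tested genes chosen by role are all grey.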

How the data were processed

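RNA of 4 oocyte libraries was sequenced. Libraries were grouped by their titles. The submitters' processing notes name cutadapt 1.16, STAR, RSEM and the build mm10, without roles or settings. Strand use and the matrix's counter are not stated. The authors deposited whole-number counts per gene. RSEM tables hold, per the file headers, an expected count, a TPM, an FPKM (not used) and, in other columns, lengths. TPM values are the deposited ones, per effective length.

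Mutants were tested against controls on these counts by edgeR 4.0.16 under R 4.3.3 (filterByExpr, TMM, glmQLFit and glmQLFTest with no covariate, Benjamini-Hochberg adjustment across 15493 genes). Residual degrees of freedom were 2. CPM values use the TMM-scaled sizes, except for marker sums, which use the matrix totals. An SE is the log2 fold change divided by the square root of F. Positions and sequences came from GENCODE M21, and the sequence of the middle exon of *Gm49513* is not reported here. Amplified reads are not independent molecules, so intervals cover counting error only. Expected counts were rounded for the fit.

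The list of genes, the lipid lists, the markers and the tests were chosen with earlier results of these data known. Named were the 10 genes, up to 3 genes past the threshold and the gene of highest mean CPM in each lipid list, genes within 500000 bases of *Pnpla3*, the 3 nearest to it in log2 CPM (prior count 2), and leading markers. Of the list names, *Spart* and *Ldaf1* matched no symbol. Alternatives were DESeq2 1.42.0, limma 3.58.1 trend, other scalings and filters, RSEM counts, a replicate block and each library left out. The test was tried on simulated counts first.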

Additional observations from a re-analysis of the deposited data

How the results depend on the processing

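With 2 libraries a group, counts of calls moved with the setting. Over all genes 274 were higher and 307 lower in mutants. DESeq2 gave 1017 and 976, the filter of at least 1 count in total 749 and 573. Leaving out a library gave 10 to 962 higher and 12 to 726 lower. The replicate block gave 730 and 483, though the numbers share only a label. Same-numbered deviations had r = 0.176, which with 2 libraries a group is the same for both pairs by construction. On the lipid lists, 3 higher and 6 lower became 10 and 11 with DESeq2, and the higher count became 6 with the filter of at least 1 count in total and 7 with the replicate block. The lower count became 3 with RLE scaling and 1 with upper quartile scaling. Leaving out a library gave 0 to 8 higher and 0 to 9 lower. Of the genes chosen by role DESeq2 called 1 higher and no other setting called any. *Pnpla3* kept a log2 fold change of 6.08 to 8.30 over 12 alternatives, the top value being the one with RSEM counts. *Gm49513* kept 6.66 to 6.94 over 11, and was too low to fit with RSEM counts. Leaving out a library gave log2 fold changes of -0.011 to 0.30 for *Abhd5* (below 0 without mutant 1), -0.61 to 0.34 for *Pnpla2* (above 0 without mutant 2) and -1.48 to 1.19 for *Lipe* (below 0 without control 1, at -0.15, or without mutant 2), and none of these passed. The cause of these shifts was not tested. Depth limits *Lipe* and *Mgll* most.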
